A study of Mus musculus with 11 samples.

Results

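Lymph nodes of mice with a BCL2 insertion in the kappa locus (KI, a knock-in) were compared with lymph nodes of mice that carried BCL2 as a transgene (Tg), across all 10885 genes of the deposited table. The comparison used 4 of the 11 libraries of the series: 2 KI nodes (mice 5 and 6, labelled Igk-BCL2) and 2 Tg nodes (mice 3 and 4, labelled 3'RR-BCL2, after the enhancers that lie 3′ of the antibody heavy chain genes). The 2 lymph nodes of wild-type mice (Wt, mice 1 and 2) entered the estimate of the spread and their levels are given beside the others. Every mouse, the Wt mice included, had been immunised intraperitoneally with sheep red blood cells, 3 times within 3 months, and was sampled 1 month after the last injection. RNA came from dissociated whole-tissue cells, so B cells were not sorted. Age, strain, zygosity of the insertions, the species of the inserted BCL2 and the node sampled are not given in the sources used here.

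BCL2 is the founding member of a family of proteins that decide whether a cell releases cytochrome c from its mitochondria and dies; it binds and restrains the pro-death members. The kappa locus is active in B cells that use a kappa light chain and very strongly active in plasma cells. The 3′ regulatory region (3'RR) is a group of enhancers downstream of the heavy chain genes that acts mainly in mature and activated B cells and in plasma cells, and controls class switching. A lymph node responding to antigen holds naive B cell follicles, germinal centres in which B cells divide and mutate their antibody genes, plasma cells, T cells, dendritic cells and macrophages. In such whole-tissue RNA, fewer cells of a type and less RNA per cell cannot be told apart.

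Recovered depth lay between 12165371 and 21067988 reads in the KI and Tg nodes. The 4 mice were male by Ddx3y; Wt mouse 1 was female by Xist, so the KI against Tg contrast held no sex difference. One library stood apart within its group: KI mouse 6 had little RNA of the kappa constant region and almost none of kappa variable and joining segments. Of 136 genes more than 4-fold apart between the 2 KI nodes (log2 scale with 1 added), 97 were immunoglobulin genes and 85 of these were kappa genes. With immunoglobulin genes left out, log2 values of the 2 KI nodes differed from each other with an SD of 0.351 over genes, against 0.435 for the 2 Tg nodes and 0.477 for the 2 Wt nodes; with all genes the SD for the KI nodes was 0.918. Results that rest on this library are given with and without it.

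The 2 groups differed at many genes. In limma's test on log2(normalised value + 1), with Benjamini-Hochberg adjustment over all genes, 2171 genes passed an adjusted p of 0.05, which is 19.9% of those tested. KI nodes were higher for 1212 of them (11.1%) and lower for 959 (8.81%), and 991 changed more than 2-fold, 604 upward and 387 downward. With immunoglobulin and haemoglobin genes left out before scaling, the split was 1556 higher and 766 lower. The counts fell when a KI mouse was left out. Without KI mouse 5, 949 genes passed (8.72%), 536 higher (4.92%) and 413 lower (3.79%); without KI mouse 6, 1286 genes passed (11.8%), 762 higher (7.0%) and 524 lower (4.81%). The median log2 difference over all genes was 0.01. At 6824 genes (62.7%) the KI and Tg libraries did not overlap, against the 19.9% that were called. All 2171 called genes were among the 6824, so a lack of overlap is no added evidence for a called gene. Member counts given below without a KI mouse are to be read beside the smaller shares given here for that fit.

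**Figure D1:**
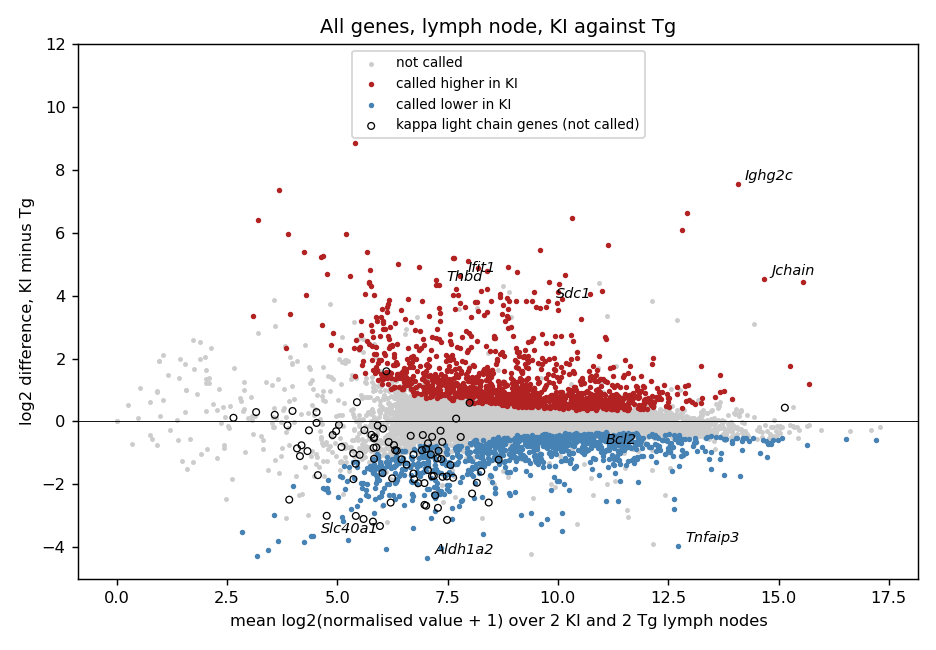
Log2 difference between KI and Tg nodes (vertical axis) against the mean log2(normalised value + 1) of the 4 libraries (horizontal axis), 1 point per gene. Red points are the 1212 genes called higher in KI, blue points the 959 called lower, grey points were not called, and open circles are kappa light chain genes, none of which was called with both KI mice in the fit.

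Antibody genes were far higher in KI nodes. Immunoglobulin genes took 9.46% and 6.77% of all signal in KI nodes, against 0.875% and 0.823% in Tg nodes and 0.662% and 0.751% in Wt nodes. Among heavy chain constant regions, the part of the antibody that sets its class, Ighg2c (IgG2c) stood first: it had 272354 and 206815 in KI nodes, against 849 and 1849 in Tg nodes and 3646 and 4092 in Wt nodes (log2 difference 7.56 ± 0.38, SE, limma adjusted p = 0.00053). Both KI nodes were far above both Wt nodes too. Ighg2b (IgG2b) followed with 318201 and 156167 in KI nodes, against 10395 and 10442 in Tg nodes and 4444 and 6555 in Wt nodes (log2 difference 4.42 ± 0.36, SE, limma adjusted p = 0.00131). Igha (IgA) and Ighm (IgM) rose by 1.76 ± 0.25 and 1.19 ± 0.16 on the log2 scale (SE; limma adjusted p = 0.00355 and 0.00249).

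Other heavy chain classes lay apart between the groups but missed the threshold. Ighe (IgE) had 1781 and 2156 in KI nodes, against 221 and 57.4 in Tg nodes, with a log2 difference of 4.11 ± 0.88 (SE, limma adjusted p = 0.0527). Ighg1 (IgG1) had 84316 and 49399 in KI nodes, against 14239 and 4037 in Tg nodes, with a log2 difference of 3.09 ± 0.91 (SE, limma adjusted p = 0.112). Ighg3 (IgG3) had 8867 and 31927 in KI nodes, against 603 and 2361 in Tg nodes, with a log2 difference of 3.82 ± 1.08 (SE, limma adjusted p = 0.113). Of 12 measured constant regions, light chains included, 5 rose and 0 fell, against 11.1% of all genes called higher. The median log2 difference was 3.29 with both KI mice, 4.04 without KI mouse 5 and 3.18 without KI mouse 6. The libraries did not overlap for any of Ighe, Ighg1 and Ighg3, as was so at 62.7% of all genes. The edgeR and DESeq2 fits on recovered reads called them. Ighd (IgD), which naive B cells carry beside IgM, was the 1 constant region with a negative difference, with 8154 and 6693 in KI nodes, against 10937 and 8446 in Tg nodes (log2 difference -0.38 ± 0.17, SE, limma adjusted p = 0.15). IgG genes together made up 79.9% and 74.7% of heavy chain constant signal in KI nodes, against 28.6% and 21.9% in Tg nodes and 28.3% and 20.8% in Wt nodes. Heavy chain classes share sequence, so reads may have been split between neighbours in this family.

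**Figure D2:**
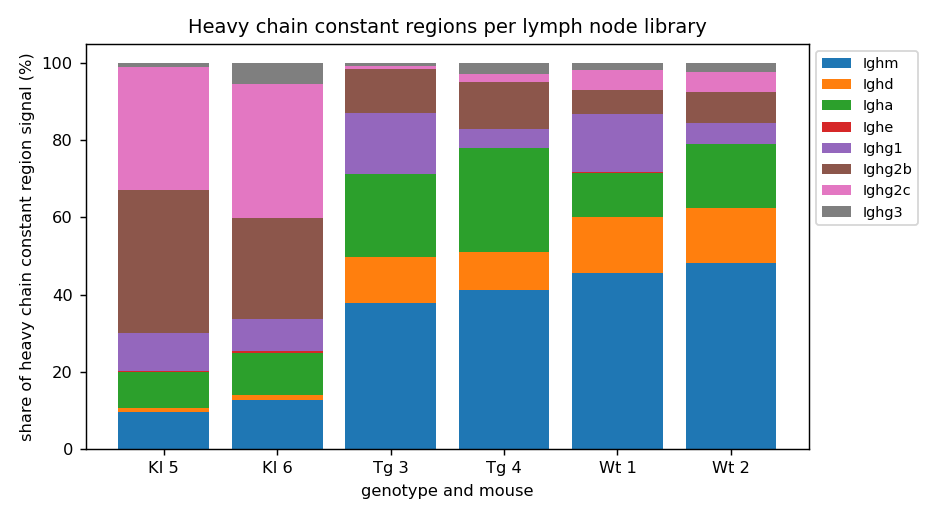
Share of the summed heavy chain constant region signal taken by each class (vertical axis, percent) in each lymph node library (horizontal axis, genotype and mouse). Ighg2c and Ighg2b fill most of the 2 KI bars, while Ighm is the tallest part of the 4 Tg and Wt bars, from 37.8% to 48.2%.

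The light chains divided the 2 KI mice. Igkc, the kappa constant region, had 419339 in KI mouse 5 and 4235 in KI mouse 6, against 31179 and 31009 in Tg nodes and 22589 and 26307 in Wt nodes. Mouse 5 was thus above and mouse 6 below all 4 other nodes, and with both in the fit the log2 difference was 0.44 ± 2.64 (SE, limma adjusted p = 0.933). Without mouse 6 it was 3.75, and without mouse 5 it was -2.88. Summed over 79 kappa variable segments, signal was 206681 in KI mouse 5 and 168 in KI mouse 6, against 12713.5 and 15148 in Tg nodes; 38 of the 79 segments were at 0 in mouse 6. All 5 kappa joining segments were at 0 in mouse 6 as well. With both KI mice 0 of the 79 kappa variable segments were called by limma, edgeR or DESeq2, and 0 had an unadjusted p under 0.05. Their median log2 difference was 3.84 without mouse 6 and -5.67 without mouse 5. A fit with a lone KI mouse takes its spread from the other groups.

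Lambda, the alternative light chain, was high in both KI nodes and highest in mouse 6. Lambda made up 8.22% of light chain constant signal in KI mouse 5 and 98.0% in KI mouse 6, against 13.2% and 8.63% in Tg nodes and 12.3% and 11.8% in Wt nodes. The spleens of the same mice gave 10.7% in KI mouse 5 and 96.5% in KI mouse 6, so kappa was scarce in both tissues of mouse 6. Iglc1, a lambda constant region, rose by 6.10 ± 1.07 on the log2 scale (SE, limma adjusted p = 0.0459), with 23896 and 147481 in KI nodes, against 1091 and 685 in Tg nodes; that call was lost without either Tg mouse or either Wt mouse. Iglc2 had 10663 and 39361 in KI nodes, against 2715 and 1742 in Tg nodes (log2 difference 3.24 ± 0.76, SE, limma adjusted p = 0.0727), and Iglc3 had 3007 and 16346 in KI nodes, against 948 and 502 in Tg nodes (log2 difference 3.34 ± 1.03, SE, limma adjusted p = 0.128). Without KI mouse 5 these log2 differences were 4.18 (Iglc2) and 4.56 (Iglc3), and without KI mouse 6 they were 2.29 and 2.12. A lone KI library leaves no spread between KI mice to test against. Lambda variable segments summed to 41240.2 and 255641 in KI nodes, against 1844 and 1295.5 in Tg nodes.

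**Figure D3:**
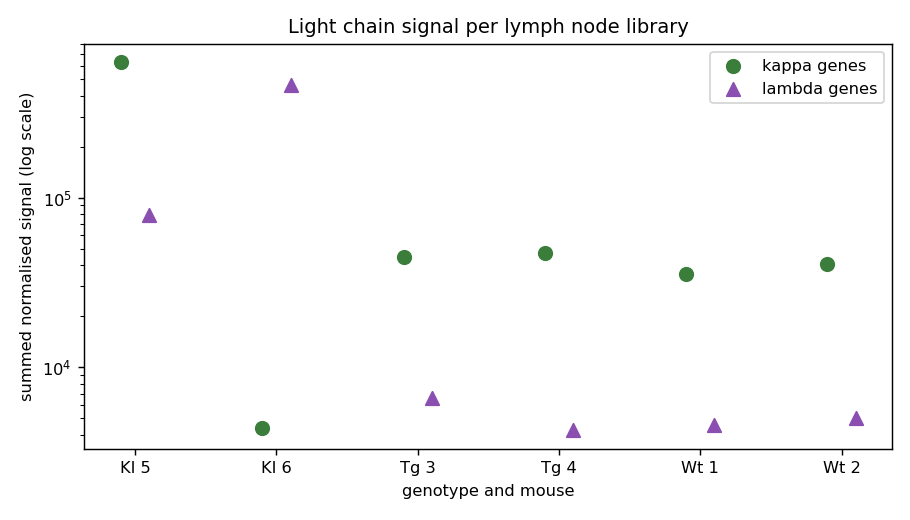
Summed normalised signal of kappa genes (circles) and lambda genes (triangles) on a log scale (vertical axis) in each lymph node library (horizontal axis, genotype and mouse). Kappa lies above lambda in every library except KI mouse 6, where the order is turned round.

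Heavy chain variable segments were higher in both KI mice, where 11.1% of all genes were called higher. Of 88 measured segments, 74 rose and 0 fell (median log2 difference 3.63); 61 rose without KI mouse 5 and 66 without KI mouse 6. Their summed signal was 142432 and 115654 in KI nodes, against 7836 and 9043 in Tg nodes and 7958 and 9268 in Wt nodes. The largest segment took 13863 in KI mouse 5 and 10608 in KI mouse 6, a small part of each sum. Single segments differed between the 2 KI mice: 8 of the 88 were more than 4-fold apart, with log2 differences (KI mouse 5 minus KI mouse 6) between -5.82 and 3.52 and a median of 0.32, whereas all 79 kappa variable segments were more than 4-fold apart, with a median of 9.49. All 4 heavy chain joining segments rose. Segments resemble each other in sequence, so they are given as a class.

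Plasma cell genes rose together, where 11.1% of all genes were called higher. Of 20 measured genes of the plasma cell list, 17 rose and 1 fell, with a median log2 difference of 1.92 against 0.01 over all genes. Jchain, which links IgA and IgM into polymers, had 122649.5 and 128795 in KI nodes, against 6602 and 4465 in Tg nodes and 2972 and 3699.8 in Wt nodes (log2 difference 4.53 ± 0.20, SE, limma adjusted p = 4e-05). Sdc1 (CD138, the surface proteoglycan by which plasma cells are sorted) had 2915 and 3760.4 in KI nodes, against 252 and 217 in Tg nodes and 163 and 207 in Wt nodes (log2 difference 3.82 ± 0.19, SE, limma adjusted p = 4e-05). Derl3, which helps move misfolded proteins out of the endoplasmic reticulum (ER), had 2737 and 2651 in KI nodes, against 222 and 214 in Tg nodes and 139 and 221 in Wt nodes (log2 difference 3.62 ± 0.21, SE, limma adjusted p = 0.00013). In these genes each KI node also lay above both Wt nodes. The plasma cell regulators Prdm1 and Xbp1 rose by 1.60 and 2.02 on the log2 scale; the Prdm1 call was lost without any 1 of the 4 KI and Tg mice. Irf4, a regulator of plasma cells that activated B and T cells also use, did not follow: it had 2707 and 2495 in KI nodes, against 5329 and 4671 in Tg nodes and 2204 and 4327 in Wt nodes, with a log2 difference of -0.94 ± 0.31 (SE, limma adjusted p = 0.0902), and was called lower without either Wt mouse. The member that fell was Cd28 (-1.17), which is also a T cell gene and counted in the T cell list; that call was lost without any 1 of the 4 KI and Tg mice. The list's summed level was 183488 and 187419.8 in KI nodes, against 33685 and 32574 in Tg nodes and 23363 and 30001 in Wt nodes.

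Genes for protein folding and export from the ER rose by smaller amounts, where 11.1% of all genes were called higher. Of 23 measured genes, 17 rose and 1 fell (median log2 difference 0.67), with 11 rising without KI mouse 5 and 9 without KI mouse 6. Hsp90b1 (GRP94), an ER chaperone, had 17298 and 18552 in KI nodes, against 4837 and 5716 in Tg nodes and 5328 and 6593 in Wt nodes (log2 difference 1.77 ± 0.15, SE, limma adjusted p = 0.00043). Sdf2l1, another ER-resident chaperone partner, rose by 1.72 ± 0.14; Sel1l, an adaptor of ER-associated degradation, by 1.47 ± 0.14; and Manf, a secreted ER stress protein, by 1.28 ± 0.12 (log2, SE; limma adjusted p = 0.00036, 0.00071 and 0.00062). Creld2, of the plasma cell list, is an ER protein induced by stress and rose by 2.21 ± 0.13 (SE, limma adjusted p = 0.00013). Hspa5 (BiP), the main ER chaperone, rose by 0.71, a call lost without either KI mouse. Dnajb9, a co-chaperone of Hspa5, fell by 0.67, a call lost without any 1 of the 4 KI and Tg mice. Ddit3 and Atf4, transcription factors of the stress arm that leads to cell death, had log2 differences of -0.51 and -0.27 and were not called.

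Promoters of these genes are shown because a known element recurs in them. The ER stress element, searched on both strands as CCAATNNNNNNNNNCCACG in RefSeq promoter windows (GRCm38.p6, 250 bases before to 50 after the start), was present in 7 of 19 ER list genes with a window and in 2 of 17 plasma cell list genes, Derl3 and Creld2. It was present in 0.200% of 8496 genes of the table with a window and in 0.137% of all 27025 windows. The stretches of 100 bases below are on the strand of the gene, 5′ to 3′, with the element in capitals; in Derl3 and Creld2 it reads on the opposite strand, so the capitals begin with CGTGG. They cover chr10:75893201-75893300 (+ strand), chr15:88819479-88819578 (+ strand) and chr2:34771984-34772083 (+ strand). A match is a match of letters and not a binding site.
Derl3: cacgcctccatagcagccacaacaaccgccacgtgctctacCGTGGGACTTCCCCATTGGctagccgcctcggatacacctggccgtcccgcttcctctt
Creld2: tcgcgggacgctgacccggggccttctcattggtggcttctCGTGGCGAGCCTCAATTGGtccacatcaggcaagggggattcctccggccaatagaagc
Hspa5: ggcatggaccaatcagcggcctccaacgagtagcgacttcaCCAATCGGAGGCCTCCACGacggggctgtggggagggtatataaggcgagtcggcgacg

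Germinal centre genes rose as a group. Of 18 measured genes 15 rose and 0 fell (median log2 difference 1.66), against 11.1% of all genes called higher. Nuggc, a nuclear GTPase of germinal centre B cells, had 3366 and 2979 in KI nodes, against 594 and 479 in Tg nodes and 214 and 144 in Wt nodes (log2 difference 2.57 ± 0.21, SE, limma adjusted p = 0.00034). S1pr2, the receptor that holds B cells inside the germinal centre, had 3255 and 2351 in KI nodes, against 688 and 681 in Tg nodes and 376 and 267 in Wt nodes (log2 difference 2.01 ± 0.20, SE, limma adjusted p = 0.0009). The guidance molecules Efnb1 and Plxnb2 rose by 1.84 ± 0.19 and 1.78 ± 0.20 (log2, SE; limma adjusted p = 0.00093 and 0.00174). For Nuggc, S1pr2, Efnb1 and Plxnb2 the order was KI above Tg above Wt in every pair of libraries. Bcl6, the master repressor of the germinal centre, rose by 1.08.

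Genes of cell division rose too, where 11.1% of all genes were called higher. Of 32 measured genes 21 rose and 0 fell (median log2 difference 1.08); 9 rose without KI mouse 5. Mki67, the marker of cycling cells, had 4818 and 3639.8 in KI nodes, against 1414 and 1194 in Tg nodes and 1203 and 1432 in Wt nodes (log2 difference 1.69 ± 0.17, SE, limma adjusted p = 0.00073). Ccna2 (cyclin A), Kif11 (a spindle motor) and Rrm2 (a ribonucleotide reductase subunit) rose by 1.32 ± 0.18, 1.32 ± 0.18 and 1.21 ± 0.16 (log2, SE; limma adjusted p = 0.00274, 0.00285 and 0.00221). The Tg and Wt nodes overlapped for Mki67. The 6 Mcm helicase genes and Pcna, which act in DNA replication, had log2 differences between 0.01 and 0.39 and none was called; whether they differed from the mitotic genes was not tested.

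General B cell genes changed in both directions. Of 20 measured pan B cell genes, 6 rose and 3 fell (median log2 difference 0.38), against 11.1% of all genes called higher and 8.81% called lower; 8 rose without KI mouse 6, 3 rose without KI mouse 5, and 1 fell without KI mouse 6, Tg mouse 4 or either Wt mouse. Ms4a1 (CD20) had 12079.6 and 10256 in KI nodes, against 6089.9 and 4234 in Tg nodes and 5742 and 5625 in Wt nodes (log2 difference 1.13 ± 0.18, SE, limma adjusted p = 0.00489), and Pou2af1, the B cell coactivator of octamer-dependent transcription, rose by 1.17 ± 0.16 (SE, limma adjusted p = 0.00272). Cd79b, a signalling chain of the B cell receptor, rose by 0.75 ± 0.12 (SE, limma adjusted p = 0.00533; 0.0525 without KI mouse 5). Fcer2a (CD23), carried by naive follicular B cells, fell by 1.10 ± 0.18 (log2, SE, limma adjusted p = 0.00579), with 3564 and 2535 in KI nodes, against 7248 and 5747 in Tg nodes and 6807 and 7161 in Wt nodes.

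In the list of marginal zone and B1 genes, 0 of 12 rose and 4 fell, or 2 without either KI mouse. Over all genes 8.81% were called lower. The 4 that fell were Cd5 (-0.87), a surface receptor that T cells also carry, Cd1d1 (-0.83), which presents lipids, Myof (-0.84), a membrane repair protein, and Cr2 (-0.69), the complement receptor CD21. Cd1d1 lost its call without KI mouse 5 (limma adjusted p = 0.0699), Myof without KI mouse 5, KI mouse 6 or Tg mouse 3, and Cr2 without KI mouse 6, Tg mouse 4 or either Wt mouse. Among memory and activated B cell genes 2 of 13 rose and 1 fell, a share near the 19.9% of all genes called. Tnfrsf13b (TACI), a receptor for BAFF and APRIL, rose by 0.98, and Cd86, a costimulatory ligand, by 1.07, while Cd83 changed by -1.36. Cd83 lost its call without any 1 of the 4 mice (limma adjusted p from 0.127 to 0.239).

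B cell receptor signalling genes showed 7 of 25 higher and 1 lower (median 0.22), with 4 higher without KI mouse 5. Over all genes 11.1% were called higher and 8.81% lower. Fcgr2b, the inhibitory Fc receptor, had 2497 and 2182 in KI nodes, against 1211 and 1342 in Tg nodes and 1037 and 1045 in Wt nodes (log2 difference 0.87 ± 0.12, SE, limma adjusted p = 0.00278). Lyn, a kinase, Cd81, a tetraspanin, and Blnk, an adaptor, rose by 0.74, 0.91 and 0.80. The member that fell was Cd72 (-0.48), a B cell coreceptor, and that call was lost without KI mouse 6, Tg mouse 3, Tg mouse 4 or either Wt mouse. Of 8 measured genes of BAFF, APRIL and CD40 signalling, 2 rose and 3 fell, against the same shares of all genes. Tnfrsf17 (BCMA), the APRIL receptor of plasma cells, had 117 and 124 in KI nodes, against 21.2 and 13.5 in Tg nodes and 9.68 and 7.66 in Wt nodes (log2 difference 2.76 ± 0.47, SE, limma adjusted p = 0.00619). Traf3 and Map3k14 (NIK), which together set the alternative NF-kB pathway, changed by -0.54 and -0.44; without KI mouse 5 or KI mouse 6 0 members of this list were called lower, and 1 without Tg mouse 4.

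Bcl2 itself was lower in KI than in Tg nodes. It had 1246 and 1664 in KI nodes, against 2065 and 3171 in Tg nodes and 2338 and 2716 in Wt nodes (log2 difference -0.83 ± 0.23, SE, limma adjusted p = 0.0473). The KI nodes lay below both Wt nodes too, and the Tg and Wt nodes overlapped. The call was close to the threshold: limma adjusted p was 0.196 without KI mouse 5, 0.111 without Tg mouse 4, 0.0708 without Wt mouse 1 and 0.0698 without Wt mouse 2, and edgeR gave 0.0505. In spleen Bcl2 had 1249 and 1299 in KI, 2109 in the 1 Tg library and 2611 and 2427 in Wt. Whether RNA of the inserted BCL2 was counted under this gene is not given in the sources used here. These values can therefore not be read as a measure of the transgene or knock-in.

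Of 15 measured BCL2 family genes, 2 rose and 3 fell (median log2 difference -0.27), and 1 rose and 1 fell without either KI mouse. Over all genes 11.1% were called higher and 8.81% lower, so the share of this list called higher was near that of all genes. The 2 members that rose are pro-death BH3-only genes. Bmf had 1866 and 1988 in KI nodes, against 654 and 632 in Tg nodes and 379 and 632 in Wt nodes (log2 difference 1.58 ± 0.22, SE, limma adjusted p = 0.00345), and Bcl2l11 (BIM) had 2489 and 2393 in KI nodes, against 1395 and 1746 in Tg nodes and 1045 and 1459 in Wt nodes (log2 difference 0.64 ± 0.18, SE, limma adjusted p = 0.0383). The Bcl2l11 call was lost without KI mouse 5, KI mouse 6 or Tg mouse 3 (0.162, 0.114 and 0.143). Besides Bcl2, the members that fell were Pmaip1 (NOXA, -1.23), also a pro-death BH3-only gene, whose call was lost without KI mouse 6 or either Tg mouse, and Bcl2a1a (a pro-survival gene, -1.45). Bcl2a1a has near-identical copies among which reads may be split, and its call was lost without KI mouse 5, KI mouse 6, Tg mouse 3 or either Wt mouse (limma adjusted p from 0.0587 to 0.21). The pro-survival genes Mcl1 and Bcl2l1 and the effector Bax were not called: Mcl1 had 10915 and 10029.8 in KI nodes, against 12039.8 and 16313 in Tg nodes (log2 difference -0.42 ± 0.18, SE), Bcl2l1 297 and 234 in KI nodes, against 293 and 349 in Tg nodes (-0.27 ± 0.21), and Bax 1292 and 1329.7 in KI nodes, against 1499 and 1804 in Tg nodes (-0.33 ± 0.13).

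Genes of the type I interferon response, an antiviral programme, were higher in KI nodes almost without exception, against 11.1% of all genes called higher. Of 21 measured genes, 20 rose and 0 fell, with a median log2 difference of 2.65; 14 rose without Tg mouse 3, and 14 without Tg mouse 4. Ifit1, which binds foreign RNA caps, had 891 and 1358 in KI nodes, against 56.6 and 32.9 in Tg nodes and 163 and 45.9 in Wt nodes (log2 difference 4.64 ± 0.65, SE, limma adjusted p = 0.00936); its call was lost without Tg mouse 3 (0.0697) or Tg mouse 4 (0.0965). Oasl2 and Oas2 belong to a family tied to sensing of double-stranded RNA. Oasl2 had 1220.5 and 1504 in KI nodes, against 67.9 and 131 in Tg nodes and 109.7 and 50.3 in Wt nodes (log2 difference 3.83 ± 0.44, SE, limma adjusted p = 0.0031). Oas2 had 2520.0 and 2609 in KI nodes, against 154 and 270.1 in Tg nodes and 271 and 118 in Wt nodes (log2 difference 3.64 ± 0.46, SE, limma adjusted p = 0.00719) and lost its call without Tg mouse 3 (0.0583). Rsad2 (viperin) had 402 and 351 in KI nodes, against 25.5 and 22.8 in Tg nodes and 58.1 and 24.1 in Wt nodes (log2 difference 3.91 ± 0.42, SE, limma adjusted p = 0.00103). Oas1a and Stat2 (a transducer of the interferon receptor) rose by 2.71 ± 0.26 and 1.17 ± 0.12 (log2, SE), and Dhx58, a regulator of RNA sensing, had 1107 and 1417 in KI nodes, against 294 and 332 in Tg nodes and 384 and 276 in Wt nodes (limma adjusted p = 0.00078). The member not called was Ifit3, with 1552 and 2381 in KI nodes, against 133 and 69.2 in Tg nodes and 190.3 and 36.1 in Wt nodes (log2 difference 4.31 ± 0.95, SE, limma adjusted p = 0.0563). Its libraries did not overlap between KI and Tg, as was so at 62.7% of all genes.

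The list's summed level was 33643 and 44608 in KI nodes, against 8335 and 8897 in Tg nodes and 11299 and 7909 in Wt nodes. In spleen it was 13192 and 15040.4 in KI, 10737 in Tg and 9101 and 10099 in Wt. Both KI libraries were thus above the 3 others in spleen as well. This order held for the sum and not for every member. Of 14 measured interferon-gamma response genes, which are GTPases with Irf1 and Socs1, 6 rose and 0 fell, against 11.1% of all genes called higher. Their summed level was 19647 and 24070.5 in KI nodes, against 13199 and 15597 in Tg nodes and 16581 and 14678 in Wt nodes. In spleen the order was turned round, with 13254 and 11681 in KI, 17461 in Tg and 14868 and 16388 in Wt. Irf1, a transcription factor, was the 1 member with a negative difference and was not called. It had 2947 and 3387 in KI nodes, against 3932 and 4611 in Tg nodes and 3928 and 4082 in Wt nodes (log2 difference -0.43 ± 0.13, SE, limma adjusted p = 0.0514). With all 11 libraries in the fit 1 member was called lower. Irgm1 and Iigp1 are GTPases that act on vacuoles of intracellular pathogens. Irgm1 had 2138 and 2369 in KI nodes, against 678 and 885 in Tg nodes and 1053 and 981 in Wt nodes (log2 difference 1.54 ± 0.15, SE, limma adjusted p = 0.00066), and Iigp1 had 577 and 1025 in KI nodes, against 181 and 143 in Tg nodes and 249.9 and 172 in Wt nodes (log2 difference 2.25 ± 0.31, SE, limma adjusted p = 0.00336). Gbp7 and Gbp9, guanylate-binding proteins, rose by 1.26 and 0.84, whereas Gbp2 to Gbp5 were between 0.08 and 0.52 and not called. Gbp genes resemble each other, so reads may be split among them.

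Promoters of 3 called interferon genes are shown for the element that interferon-activated STAT and IRF factors bind. Its core, searched on both strands as GAAANNGAAA, was present in 9 of 15 list genes with a window, against 4.10% of the 8496 genes of the table with a window and 3.99% of all 27025. Capitals mark the matches, which in Ifit1 and Rsad2 read on the opposite strand (TTTCNNTTTC). Ifit1 holds 2 in the stretch shown, and in Oas1a 2 matches overlap. They cover chr19:34640759-34640858 (+ strand), chr12:26456518-26456617 (- strand) and chr5:120907485-120907584 (- strand) of GRCm38.p6.
Ifit1: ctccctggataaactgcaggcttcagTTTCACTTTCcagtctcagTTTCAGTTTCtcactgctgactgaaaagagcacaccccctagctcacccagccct
Rsad2: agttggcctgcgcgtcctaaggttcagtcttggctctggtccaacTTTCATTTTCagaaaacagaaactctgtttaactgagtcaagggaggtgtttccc
Oas1a: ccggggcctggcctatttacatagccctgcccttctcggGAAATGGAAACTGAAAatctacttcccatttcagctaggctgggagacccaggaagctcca

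Genes of the NF-kB list, its targets and subunits, were lower in KI nodes, where 8.81% of all genes were called lower. Of 17 measured genes, 0 rose and 10 fell (median log2 difference -0.84), with 5 falling without KI mouse 5, 4 without KI mouse 6 and 5 without Tg mouse 4. Tnfaip3 (A20), a deubiquitinase that ends NF-kB signalling, had 2028 and 1464 in KI nodes, against 25529 and 27680.5 in Tg nodes and 9464 and 29253 in Wt nodes (log2 difference -3.95 ± 0.61, SE, limma adjusted p = 0.0233). Its call was lost without any 1 of the 4 mice (limma adjusted p from 0.0687 to 0.138), and Wt mouse 1 lay well below Wt mouse 2. Ccl22, a chemokine of mature dendritic cells, had 68.0 and 121 in KI nodes, against 1074 and 1103 in Tg nodes and 819 and 547 in Wt nodes (log2 difference -3.57 ± 0.30, SE, limma adjusted p = 0.00062). Relb and Nfkb2 encode subunits of the factor. Relb had 1500.3 and 1517 in KI nodes, against 3310.3 and 2676 in Tg nodes and 2456 and 2579.5 in Wt nodes (log2 difference -0.98 ± 0.13, SE, limma adjusted p = 0.00233), and Nfkb2 had 2393 and 2420.4 in KI nodes, against 3930.2 and 4805 in Tg nodes and 3996 and 4664 in Wt nodes (log2 difference -0.85 ± 0.14, SE, limma adjusted p = 0.00497). Birc3, an inhibitor of apoptosis that NF-kB induces, fell by 0.84 ± 0.15 (SE, limma adjusted p = 0.00686). Nfkbia, the classical feedback inhibitor, had a log2 difference of -0.31 and was not called.

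A kappa B core, GGGANNNNCC on either strand, lay in 10 of 13 NF-kB list genes with a promoter window, against 30.2% of the 8496 genes of the table with a window and 22.9% of all 27025 windows. So short a motif, with its middle bases left free, is common, and a match of letters is not a binding site. Other forms of the kappa B site were not searched, and any in the stretches below stay in lower case. The stretches of Tnfaip3 and Ccl22, the 2 list genes with the largest decreases, cover chr10:19015361-19015460 (- strand) and chr8:94745508-94745607 (+ strand) of GRCm38.p6. Capitals mark the match, which in Ccl22 reads on the opposite strand (GGNNNNTCCC) and in Tnfaip3 lies after the start of the gene.
Tnfaip3: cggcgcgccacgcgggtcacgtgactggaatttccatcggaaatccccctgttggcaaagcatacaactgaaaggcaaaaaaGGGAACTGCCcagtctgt
Ccl22: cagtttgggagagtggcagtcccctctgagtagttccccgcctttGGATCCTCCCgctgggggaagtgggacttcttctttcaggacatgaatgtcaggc

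Immediate early genes, which cells switch on within minutes of a stimulus, were lower in part. Of 28 measured genes 0 rose and 11 fell (median log2 difference -1.06), against 8.81% of all genes called lower. Of the 28, 7 fell without KI mouse 6, and 8 fell and 2 rose without Tg mouse 4. Atf3, a stress-induced transcription factor, had 48.3 and 32.2 in KI nodes, against 512 and 844 in Tg nodes and 293 and 783 in Wt nodes (log2 difference -4.03 ± 0.53, SE, limma adjusted p = 0.00636). Plk2, a stress-responsive kinase, had 384 and 224 in KI nodes, against 2941 and 2199 in Tg nodes and 1495 and 2295 in Wt nodes (log2 difference -3.11 ± 0.34, SE, limma adjusted p = 0.00404), and Rgs1, which dampens chemokine receptors, had 590.5 and 542 in KI nodes, against 2548 and 2629 in Tg nodes and 1496 and 2185 in Wt nodes (log2 difference -2.19 ± 0.17, SE, limma adjusted p = 0.00032). In these 3 genes both KI nodes also lay below both Wt nodes. The phosphatases Dusp5 and Dusp4 and the nuclear receptor Nr4a2 had log2 differences of -3.47 ± 0.58, -2.99 ± 0.45 and -3.09 ± 0.65 (SE), and each lost its call without KI mouse 5, KI mouse 6 or Tg mouse 3; Dusp5 and Nr4a2 lost it without Tg mouse 4 as well. Nr4a3 fell by 1.72, and Myc, which drives growth, had 1154 and 1269 in KI nodes, against 2443 and 3134 in Tg nodes and 3096 and 3369 in Wt nodes (log2 difference -1.19 ± 0.14, SE, limma adjusted p = 0.00162). Fos and Fosb were not called and had log2 differences of 0.99 and 1.03.

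Stress genes of another kind varied within the groups. Of 12 heat shock genes, most of them cytosolic, 0 were called with all libraries, while 3 were called lower without Tg mouse 3 and 1 higher without Tg mouse 4. Their summed level was 147401 and 91780.3 in KI nodes, against 72159 and 255032 in Tg nodes and 130632 and 144258 in Wt nodes. Tg mouse 4 was thus highest and Tg mouse 3 lowest, with both KI nodes between them. The limma count at an unadjusted p under 0.05 was also 0, as were the edgeR and DESeq2 counts. Bag3, a co-chaperone, had 246 and 143 in KI nodes, against 345 and 1626 in Tg nodes (limma adjusted p = 0.302), and Hspe1, a mitochondrial chaperonin, had 2628 and 1911 in KI nodes, against 1980.0 and 4415 in Tg nodes (log2 difference -0.40 ± 0.42, SE). The part of handling or tissue dissociation in the immediate early and heat shock values was not tested.

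T cell genes were lower in KI nodes, where 8.81% of all genes were called lower. Of 21 measured pan T cell genes 0 rose and 16 fell (median log2 difference -0.90); 9 fell without KI mouse 5. Bcl11b and Lef1 are transcription factors of T cells. Bcl11b had 2117 and 2399.7 in KI nodes, against 5522 and 4661 in Tg nodes and 5199 and 5384 in Wt nodes (log2 difference -1.17 ± 0.13, SE, limma adjusted p = 0.0012), and Lef1 had 1387 and 1674 in KI nodes, against 3242 and 3708 in Tg nodes and 4527 and 4155 in Wt nodes (log2 difference -1.19 ± 0.14, SE, limma adjusted p = 0.00136). Trac, the constant region of the T cell receptor alpha chain, had 2214 and 2627 in KI nodes, against 4874 and 5655 in Tg nodes and 6216 and 5074 in Wt nodes (log2 difference -1.12 ± 0.15, SE, limma adjusted p = 0.00269). Cd6, a surface receptor, fell by 1.10 ± 0.13 (SE). In these genes both KI nodes also lay below both Wt nodes. Cd4, named after its values were seen, was nearer, with 3098 and 3962 in KI nodes, against 3981 and 4206 in Tg nodes and 5858 and 4806 in Wt nodes (log2 difference -0.22 ± 0.16, SE, limma adjusted p = 0.35). Of 15 T cell receptor beta variable segments 9 fell, 1 without KI mouse 5 and 6 without KI mouse 6. The summed level of the list was 57042 and 72970.0 in KI nodes, against 115292 and 120353 in Tg nodes and 137374 and 125527 in Wt nodes; the part of T cell number in the differences of other lists was not tested.

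Lists of T cell subsets and NK cells gave few calls. Of 10 follicular helper genes 2 rose, where 11.1% of all genes were called higher, and 5 of the 10 had a positive difference. The 2 were Cd200 (0.78) and Pdcd1 (PD-1, 0.92), both inhibitory molecules; 0 were called higher without KI mouse 5, Tg mouse 3 or Tg mouse 4, and 1 without KI mouse 6. Of 10 regulatory T cell genes 3 fell, where 8.81% of all genes were called lower. They were Tnfrsf4 (OX40) with 181 and 209 in KI nodes, against 408 and 432 in Tg nodes and 253 and 293 in Wt nodes (log2 difference -1.10 ± 0.18, SE, limma adjusted p = 0.0049), Izumo1r (folate receptor 4, -0.67) and Tnfrsf18 (GITR, -0.83). Izumo1r lost its call without KI mouse 6 (0.0703) and Tnfrsf18 without KI mouse 5 (0.104). In this list 6 genes fell without Wt mouse 1, and 5 without Wt mouse 2. Foxp3, the defining factor, had a log2 difference of -0.71 and was not called. Of 13 NK and cytotoxic genes 2 fell, Ccl5 (-0.92), a chemokine, and Nkg7 (-0.94), a granule protein, and 1 rose, Gzmk (1.40), a granzyme; this share, too, was near the 19.9% of all genes called. Nkg7 lost its call without KI mouse 5 (0.063), and Gzmk without any 1 of the 4 mice (0.0764 to 0.181).

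Macrophage genes were lower in KI nodes, where 8.81% of all genes were called lower. Of 19 measured genes 0 rose and 11 fell (median log2 difference -1.72), with 7 falling without Tg mouse 3. The complement genes C1qa, C1qb and C1qc moved together: C1qa had 76.8 and 94.2 in KI nodes, against 385 and 405 in Tg nodes and 381 and 217 in Wt nodes (log2 difference -2.20 ± 0.28, SE, limma adjusted p = 0.00208), C1qb fell by 2.29 and C1qc by 2.32. Slc40a1 (ferroportin), the iron exporter, had 7.68 and 3.45 in KI nodes, against 72.2 and 81.9 in Tg nodes and 51.6 and 40.5 in Wt nodes (log2 difference -3.65 ± 0.51, SE, limma adjusted p = 0.00285). It was at 1180.0 and 1535 in KI spleens, 752 in the Tg spleen and 1085 and 1263 in Wt spleens and thus higher in every spleen than in any node. Csf1r and Adgre1, receptors of most macrophages, had log2 differences of -0.84 and -0.70 and were not called.

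Part of the dendritic cell list fell, where 8.81% of all genes were called lower and 11.1% higher. Of 14 measured genes 6 fell and 1 rose (median -0.18), and 4 rose without KI mouse 5. Apol7c, an apolipoprotein L gene of mature dendritic cells, had 236 and 254 in KI nodes, against 2171 and 1577 in Tg nodes and 1371 and 1109 in Wt nodes (log2 difference -2.91 ± 0.18, SE, limma adjusted p = 0.00014). Cacnb3, a calcium channel subunit, had 202 and 229.9 in KI nodes, against 1288 and 839.7 in Tg nodes and 714 and 606 in Wt nodes (log2 difference -2.27 ± 0.21, SE, limma adjusted p = 0.00062). Fscn1, an actin bundler of mature dendritic cells, and Batf3, a factor of cross-presenting ones, fell by 2.53 and 1.77; Batf3 lost its call without KI mouse 5 or Tg mouse 3. Tcf4, a factor of plasmacytoid dendritic cells that B cells express too, had 3597 and 3308 in KI nodes, against 1517 and 1365 in Tg nodes and 1143 and 1289.8 in Wt nodes (log2 difference 1.26 ± 0.12, SE, limma adjusted p = 0.00062). Flt3 and Irf8, used by most dendritic cells, had 0.39 and 0.29 and were not called. Clec9a, also a gene of cross-presenting dendritic cells, had 63.7 and 282 in KI nodes, against 125 and 79.3 in Tg nodes (log2 difference 0.43), and was not called. Siglech and Cd209a had log2 differences of 1.63 and 1.68 and were not called, with KI mouse 6 above KI mouse 5 for both. In all, 7 of the 14 genes had a positive difference. Of 14 class II presentation genes 0 were called by limma, 0 by edgeR and 1 by DESeq2, and 3 had an unadjusted limma p under 0.05; H2-Ob and H2-Oa, which modulate peptide loading, had log2 differences of 0.33 ± 0.13 and -0.46 ± 0.18 (SE).

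Receptors that place lymphocytes in a node fell in part. Of 15 measured homing receptors and their regulators 0 rose and 5 fell, where 8.81% of all genes were called lower. Ccr7, which guides T cells and mature dendritic cells into the T zone, had 2406 and 2987 in KI nodes, against 15138 and 14466 in Tg nodes and 7761 and 16618 in Wt nodes (log2 difference -2.46 ± 0.36, SE, limma adjusted p = 0.0096); its call was lost without Tg mouse 3 (0.109) or Tg mouse 4 (0.105), and Wt mouse 1 lay well below Wt mouse 2. S1pr1, by which lymphocytes leave the node, had 3898 and 4545 in KI nodes, against 13379 and 9219.5 in Tg nodes and 8405 and 12617 in Wt nodes (log2 difference -1.40 ± 0.24, SE, limma adjusted p = 0.0089), and Klf2, which sustains it, fell by 1.69, a call lost without any 1 of the 4 KI and Tg mice. Itgb7, an integrin of gut homing, and Ccr6 fell by 0.95 and 1.46. Cxcr5, which guides cells into the follicle, had a log2 difference of 0.47 and was not called.

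**Figure D4:**
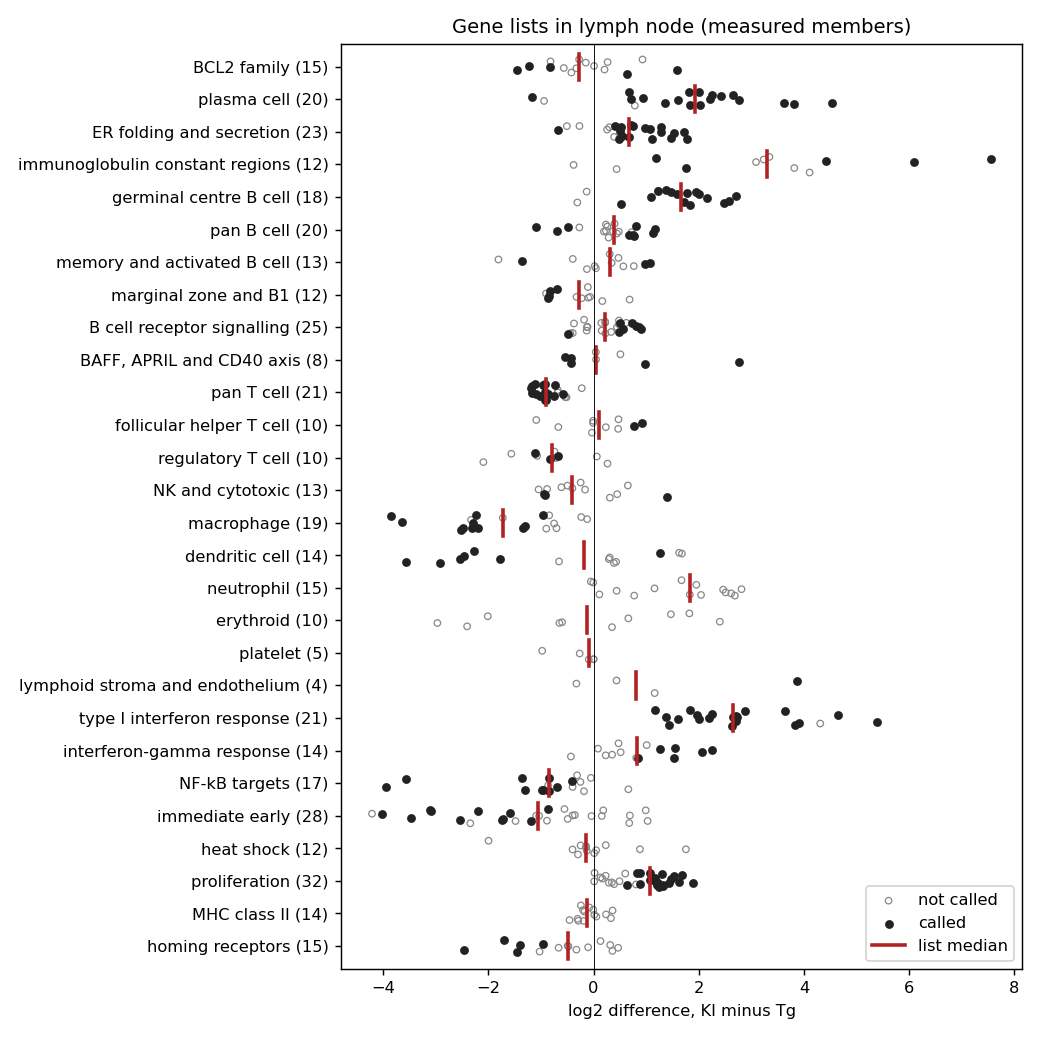
Log2 difference between KI and Tg nodes (horizontal axis) of every measured member of 28 gene lists (rows, with the number measured). Filled points were called, open points were not, and the red bar is the list median; plasma cell, germinal centre, interferon and proliferation medians lie to the right of 0, and macrophage, pan T cell, NF-kB and immediate early medians to the left.

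Lists of other cells gave few calls. In the neutrophil list 0 of 15 genes were called, although 13 had a positive difference and the median was 1.83; 3 were called higher without Wt mouse 1 and 2 without Wt mouse 2. With all libraries 2 had an unadjusted limma p under 0.05, and edgeR and DESeq2 called 0. Levels were low: Mpo, a granule enzyme, had 28.5 and 19.5 in KI nodes, against 5.66 and 0.84 in Tg nodes and 3.23 and 41.6 in Wt nodes (log2 difference 2.81 ± 1.16, SE, limma adjusted p = 0.127), and Cd177 had 38.4 and 34.5 in KI nodes, against 8.49 and 13.5 in Tg nodes and 24.2 and 102 in Wt nodes (1.67 ± 0.68). Of 10 erythroid genes limma called 0, with 4 at an unadjusted p under 0.05, while edgeR called 2 and DESeq2 3. The haemoglobin gene Hbb-bs had 113 and 66.7 in KI nodes, against 248 and 867 in Tg nodes (log2 difference -2.40 ± 0.67, SE, limma adjusted p = 0.076), and Hba-a1 had 112 and 59.8 in KI nodes, against 192 and 575 in Tg nodes (log2 difference -2.01 ± 0.63, SE, limma adjusted p = 0.0904); edgeR and DESeq2 called both lower. The alpha globin genes have near-identical copies. Of 5 platelet genes 0 were called by limma, edgeR or DESeq2, with 0 at an unadjusted p under 0.05, and Pf4 and Ppbp were at 0 in all 4 KI and Tg nodes; Itga2b and Vwf had log2 differences of -0.26 ± 0.31 and -0.98 ± 0.78 (SE). Of 16 stromal and endothelial genes the table held 4, and Kdr, a receptor for vascular growth factor, was called higher, with 144 and 531 in KI nodes, against 8.49 and 37.1 in Tg nodes and 41.9 and 19.7 in Wt nodes (log2 difference 3.87 ± 0.90, SE, limma adjusted p = 0.0335); that call was lost without KI mouse 6, Tg mouse 3 or either Wt mouse, and the KI mice differed.

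Some of the largest changes lay outside the lists. Thbd (thrombomodulin), a brake on clotting, had 718 and 702 in KI nodes, against 56.6 and 20.3 in Tg nodes and 11.3 and 17.5 in Wt nodes (log2 difference 4.34 ± 0.48, SE, limma adjusted p = 0.0012). Slpi, an inhibitor of leukocyte proteases, had 9784 and 7582 in KI nodes, against 737 and 314 in Tg nodes and 518 and 356 in Wt nodes (log2 difference 4.16 ± 0.48, SE, limma adjusted p = 0.0097). Cacna1h, a T-type calcium channel, had 4292 and 4112 in KI nodes, against 317 and 246 in Tg nodes and 155 and 117 in Wt nodes (log2 difference 3.91 ± 0.19, SE, limma adjusted p = 4e-05). Reln (reelin), a secreted matrix protein, had 1769 and 3720.2 in KI nodes, against 194 and 163 in Tg nodes and 88.7 and 90.8 in Wt nodes (log2 difference 3.84 ± 0.33, SE, limma adjusted p = 0.00075). In these genes both KI nodes also lay above both Wt nodes. The KI spleens lay above the 1 Tg spleen as well: Thbd had 779 and 310.2 in KI spleens, against 67.9 in the Tg spleen, and Reln had 1600.3 and 1547 in KI spleens, against 137.

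Among decreases, Aldh1a2, which makes retinoic acid, had 19.8 and 40.2 in KI nodes, against 637 and 551 in Tg nodes and 224 and 364 in Wt nodes (log2 difference -4.34 ± 0.37, SE, limma adjusted p = 0.00053). Spleen levels were low in every group, at 11.1 and 7.88 in KI, 4.79 in Tg and 8.36 and 5.51 in Wt. Tspan9, a tetraspanin, had 31.8 and 69.0 in KI nodes, against 427 and 376 in Tg nodes and 506 and 264 in Wt nodes (log2 difference -3.07 ± 0.43, SE, limma adjusted p = 0.00482). Rasgef1b, an exchange factor of Rap proteins, had 254 and 253 in KI nodes, against 3155 and 1842 in Tg nodes and 821 and 2279 in Wt nodes (log2 difference -3.25 ± 0.60, SE, limma adjusted p = 0.0369), and that call was lost without any 1 of the 4 mice (0.109 to 0.157). In each of these genes the KI nodes lay below both Wt nodes too.

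**Figure D5:**
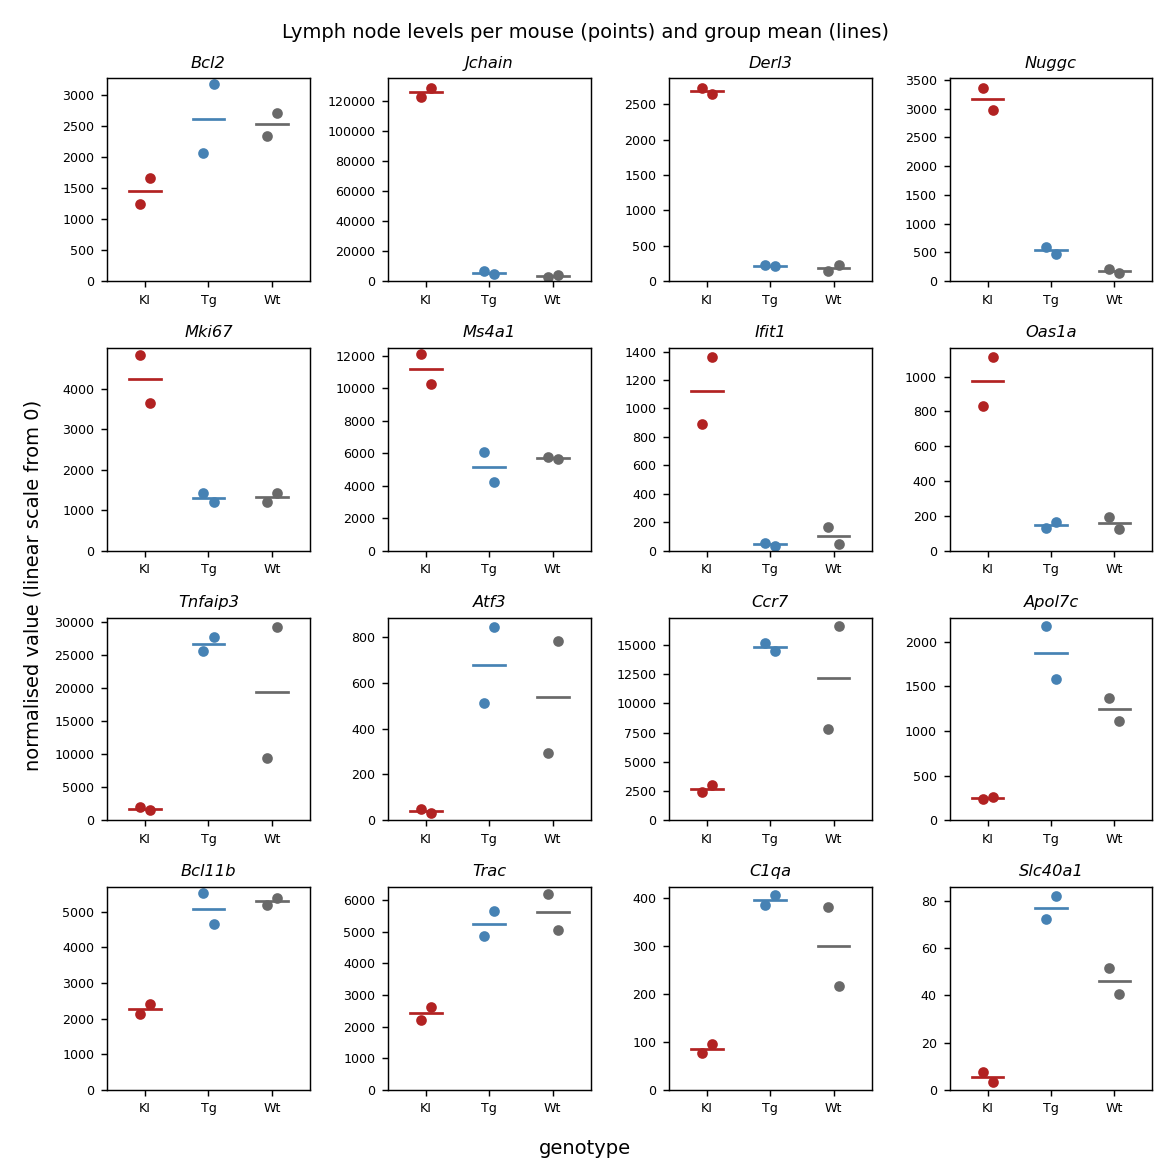
Normalised value (vertical axes, linear scale from 0) of 16 genes in each mouse (points) with the group mean (lines), for KI, Tg and Wt nodes. The 2 KI points stand above all others for Jchain, Derl3, Nuggc, Mki67, Ms4a1, Ifit1 and Oas1a, and below all others for the remaining 9 genes.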

How the data were processed

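RNA-seq libraries of mouse spleen and lymph node were deposited as 1 table of normalised signal for 10885 genes and 11 libraries; 4 lymph node libraries were compared and 2 more entered the fit. Per the submitters' processing notes, the tools were FastQC 0.11.5, STAR 2.5, featureCounts, Subread 1.4.6 and DESeq2 1.26.0 with build GRCm39, given with no role or order. Read from the values of the deposited signal, each library has a smallest step of which 100% of its values are whole multiples (tolerance 0.05 reads), as division of counts by a size factor gives. Genes whose highest value is under 109.3 are not part of it; strand setting and filter are not given in the sources used here.

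limma 3.58.1 (R 4.3.3, trend and robust empirical Bayes) was fitted to log2(value + 1), with 1 mean per genotype over the 6 lymph node libraries, so that each mouse entered once (3 residual degrees of freedom), and genes were called at a Benjamini-Hochberg adjusted p under 0.05. A fold change is on this log2(value + 1) scale and understates the change of low genes. On recovered reads (12165371 to 21067988 in KI and Tg nodes), edgeR 4.0.16 called 1965 genes, DESeq2 1.42.0 2648 and limma-voom 2176. The fits were tried on simulated counts with known changes. The same spread was set there for every gene and group, unlike in these data, so that trial does not vouch for the calls. Replicates are separate mice. Each column header carries a number that the tissues of a mouse share. These numbers lie close together for the Tg and Wt mice, and far from those for both KI mice. What they stand for is not given in the sources used here. Whether the KI mice were bred or handled apart is not known, and any part of it in the differences was not tested.

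The comparison and the 28 gene lists were chosen with earlier results of these data known. The text names Bcl2, the 10 largest increases and decreases (called, no overlap, mean log2 of at least 7, no antibody, T cell receptor, pseudogene or predicted genes), and up to 4 called members of each list by p, or 2 where none was called. Other list members, and the promoter motifs, were picked after values were seen. Values of a few list genes are not reported here. Promoters are RefSeq windows; values are not tied to their positions. Other settings were pseudocounts of 0.1 and 5, a low-value filter (100 in 2 libraries), all 11 libraries, TMM and quantile scaling, group weights, omission of immunoglobulin and haemoglobin genes, and omission of each library.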

Additional observations from a re-analysis of the deposited data

How the results depend on the processing

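The count of called genes was 2171 and lay between 1830 and 2910 in the settings that kept all 4 KI and Tg libraries: 2160 and 2184 with pseudocounts of 0.1 and 5, 2097 with a low-value filter, 2910 with all 11 libraries, 1830 with the 4 libraries alone, 1902 with group weights, 2151 with TMM, 2187 with quantile scaling (1034 higher and 1153 lower) and 2322 without immunoglobulin and haemoglobin genes. Leaving out 1 library gave 949 (KI mouse 5) to 1838 (Wt mouse 2) genes, with 536 to 1033 higher and 413 to 813 lower; these fits hold fewer samples, and a lone KI or Tg library is assumed to vary like the other groups. No paired analysis was possible because KI and Tg nodes come from different mice and share no replicate number; with the mouse as a replicate block over all 11 libraries (consensus correlation 0.0168) 2906 genes were called, 1578 higher and 1328 lower. Of 98 called named genes, 71 kept their call in every setting and 27 lost it in at least 1, among them 20 without KI mouse 5, 17 without KI mouse 6, 18 without Tg mouse 3 and 14 without Tg mouse 4; 0 of the 98 changed direction. Values that changed sign were those of uncalled genes: Igkc was -2.88 without KI mouse 5 and 3.75 without KI mouse 6, Itga2b 0.034 without KI mouse 5 and -0.56 without KI mouse 6, and Hspe1 0.18 without Tg mouse 4 and -0.98 without Tg mouse 3. The causes were not tested. With 2 mice a group, a missed threshold does not show that levels were alike.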

Other observations

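Genes outside the antibody loci also separated the 2 KI mice. Col6a4, Slc15a2 and Map7 did so the same way in both tissues. Trem3 did not, with 9.88 in KI mouse 5 and 1.15 in KI mouse 6 in node, and 28.3 and 42.3 in spleen. All were picked after their values were seen and have no test. Col6a4, a collagen chain, had 461 in KI mouse 5 and 3.45 in KI mouse 6, against 4.25 and 0.84 in Tg nodes and 0 and 2.19 in Wt nodes, and in spleen 869.6 in KI mouse 5 and 1.43 in KI mouse 6. Slc15a2, a peptide transporter, had 57.1 in KI mouse 5 and 1092 in KI mouse 6, against 1037 and 529 in Tg nodes and 414 and 2.19 in Wt nodes, and in spleen 49.7 in KI mouse 5 and 812 in KI mouse 6; the Wt mice lay apart too, with Wt mouse 2 lowest of all in both tissues. Map7, a microtubule-binding protein, had 43.9 in KI mouse 5 and 292 in KI mouse 6, against 371 and 295 in Tg nodes and 606 and 379.6 in Wt nodes, and in spleen 27.4 in KI mouse 5 and 270.1 in KI mouse 6. The difference between KI mouse 5 and KI mouse 6 correlated between spleen and lymph node at 0.900 over 10885 genes and at 0.367 over the 10693 that are not immunoglobulin genes; the points share 2 mice, and genes are not independent.

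Lrrc15, a membrane protein known from fibroblasts, had 30.7 in KI mouse 5 and 224 in KI mouse 6, against 0 and 0 in Tg nodes and 0 and 0 in Wt nodes, and in spleen 43.7 in KI mouse 5 and 71.6 in KI mouse 6; it was listed at 0 in all 4 Tg and Wt nodes.

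Rag1, a subunit of the enzyme that rearranges antibody genes, was detected in KI tissue. It had 45.0 and 54.0 in KI nodes, against 7.08 and 1.69 in Tg nodes and 0 and 3.28 in Wt nodes (log2 difference 3.43 ± 0.97, SE, limma adjusted p = 0.0411), and 92.6 and 360.4 in KI spleens, 3.19 in the Tg spleen and 4.64 and 21.2 in Wt spleens. The node call was lost with a pseudocount of 0.1 and without any 1 of the 4 KI and Tg mice (limma adjusted p from 0.0583 to 0.165).

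The inducible heat shock gene Hspa1b varied widely inside the groups, at 13716 and 1620.5 in KI nodes, against 59.4 and 32268 in Tg nodes and 6418 and 3979.8 in Wt nodes.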
